A study of Capra hircus with 29 samples.

Results

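Genes named ZNF followed by a number encode zinc finger proteins, and 267 of the 21343 genes in an RNA-seq table of goat oocytes carry such a symbol. The 124 described here were listed at over 0.5 FPKM in at least 4 of the 29 samples. FPKM counts fragments relative to the length of a gene's exons and to the mapped fragments of the sample, so it allows levels to be compared between genes. The genes were chosen by these FPKM values, so levels are given as a description, without a test.

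Most of these proteins belong to the C2H2 class, in which a zinc ion held by cysteines and histidines folds a short stretch of protein that can read DNA. Many such fingers often stand in tandem. Many members also carry a KRAB domain, which binds the corepressor TRIM28 and brings histone methylation to the target, often a transposable element. Other ZNF proteins have left transcription and act in ribosome assembly, splicing or on the spindle. In the growing oocyte, transcripts are stored for use after transcription stops, so a transcript level there need not follow the protein level.

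The oocytes came from Ji'ning grey goats of a high fertility and a low fertility population. High fertility stands for more than 3 kids per birth in the labels and in the study's results section, but at least 3 in its methods. Low fertility stands for fewer than 2 kids in the labels and at most 2 in the study's text. The oocytes were sorted by follicle size into large, medium and small follicles, which gives HLO, HMO and HSO for high fertility and LLO, LMO and LSO for low fertility, with 5 samples in each group and 4 in HSO. No treatment is stated and age is not given. The study's methods state that oocytes of 1 stage were pooled before they were split into samples of 2 to 3 oocytes, a pooling they word for the high fertility goats. Samples of a group are then parts of a pool and not separate goats, and every p-value below measures only the spread between such samples, which may be technical.

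FPKM sums ran from 347806 to 490048 in 28 samples, while LMO replicate 2 stood apart at 222697. Oocyte markers such as ZP3 summed to 1598 to 11076 FPKM per sample. Of 14 oocyte marker entries 13 were above 0.5 FPKM in at least 4 samples and 9 in all 29. A DAZL entry was at 0 in every sample. The granulosa marker sum was 0.133 to 7.48 FPKM, with 2 of 10 markers above 0.5 FPKM in 4 or more samples and AMH, AMHR2 and HSD17B1 at 0 in every sample. Of 5 leukocyte markers 1 passed that minimum, their sum was 0.0661 to 4.05 FPKM, and TYROBP was at 0 throughout. Theca and stroma markers summed to 6.34 to 42.7 FPKM, with INSL3 at 0 and with STAR (mean 18.8 FPKM) and DCN (7.95 FPKM) above 0.5 in all 29 samples. FPKM is a relative value: fewer cells of a type and less RNA per cell cannot be told apart.

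The minimum was passed by 46.4% of the ZNF genes, against 45.4% of all genes. Related families passed it to a similar or larger extent, with 18 of 42 ZBTB genes (42.9%), 8 of 16 ZFP genes (50.0%) and 11 of 17 ZSCAN and ZKSCAN genes (64.7%). Of the 143 ZNF genes outside the list, 117 were never above 0.5 FPKM and 26 of these were listed at 0 in every sample.

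Breadth varied widely among the 124 genes. In all 29 samples 33 of them (26.6%) were above 0.5 FPKM, against 47.2% of the 9692 genes of any name that passed the same minimum. Another 40 were above it in 20 to 28 samples, 25 in 10 to 19 and 26 in 4 to 9. At the limit itself, 4 genes were above 0.5 FPKM in exactly 4 samples, among them ZNF445, ZNF691 and ZNF786, and their highest values were 0.763 to 1.94 FPKM. Just outside it, 8 genes were above in exactly 3 samples, among them ZNF644, ZNF275 and ZNF629, with highest values of 0.548 to 1.97 FPKM. The minimum thus cut a continuous range of low levels.

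**Figure D1:**
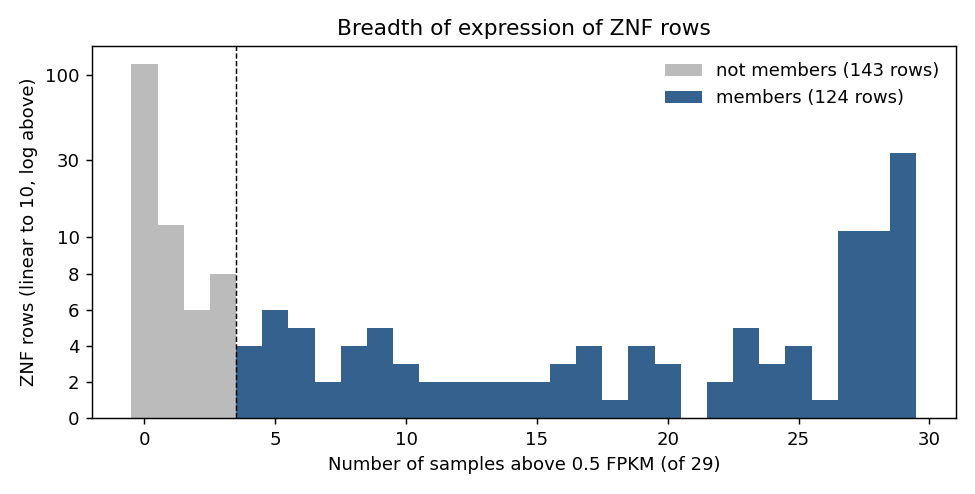
Number of ZNF genes (vertical axis, linear to 10 and logarithmic above) by the number of samples in which they were above 0.5 FPKM (horizontal axis). Blue bars are the 124 genes described, grey bars the other 143, and the dashed line is the limit of 4 samples; 33 genes stand at 29 samples and 117 at 0.

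Most of the genes reached 0.5 FPKM in every group. In every one of the 6 groups 98 of the 124 were above 0.5 FPKM in at least 1 sample. Another 6 reached it in 3 groups, and the rest, apart from ZNF804A, in 4 or 5. No such count over all genes is given here. ZNF804A alone reached it in no more than 2 groups, at 0.539, 0.606 and 0.816 FPKM in LLO replicates 2, 4 and 5 and at 0.561 FPKM in LSO replicate 2. Both groups are of low fertility, but the other 6 low fertility samples of large and small follicles held 0.0568 to 0.305 FPKM and the high fertility samples up to 0.452 FPKM, so the samples overlapped.

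Most ZNF transcripts were scarce. Their median mean level over the samples was 1.26 FPKM, against 2.67 FPKM for all genes above the minimum, and 12 genes (9.68%) reached a mean of 10 FPKM, against 26.2%. A further 58 had a mean of 1 to 10 FPKM and 54 were below 1 FPKM. The first 12 held 68.5% of the summed means and the first ZNF706 gene alone held 22.1%.

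ZNF706, a small protein with a single zinc finger, had the highest level. It is annotated as 2 genes with the same symbol, and reads with more than 1 match were discarded by the authors, so both values are uncertain and may be too low. The first (ENSCHIG00000015548) had 129 ± 44.7 FPKM (SD, n = 29), from 62.0 FPKM in LMO replicate 2 to 253 FPKM in LMO replicate 3. Its group means ran from 118 FPKM in LMO to 147 FPKM in HLO, and all groups overlapped. The second (ENSCHIG00000007167) spread far more, being listed at 0 in LLO replicate 5, with 128 FPKM in LLO replicate 2 and a median of 21.6 FPKM.

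ZNF32 followed at 46.6 ± 33.4 FPKM. In HLO it had 98.9, 14.1, 24.2, 12.8 and 74.4 FPKM in replicates 1 to 5, and in LLO 90.1, 7.84, 14.7, 42.4 and 60.9 FPKM. The spread within each group was thus larger than any difference between them, with replicates 1 and 5 high in both. ZNF330, a nucleolar protein, had 45.2 ± 25.1 FPKM, from 18.0 FPKM in HMO replicate 4 to 108 FPKM in LLO replicate 1. ZNF215, which in humans lies in an imprinted region, had 36.5 ± 20.7 FPKM, from 10.4 FPKM in HLO replicate 4 to 76.6 FPKM in LLO replicate 5. Both were above 10 FPKM in every sample.

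The remaining leading genes lay between 10 and 30 FPKM on average. ZNF576 had a mean of 26.5 FPKM, ZNF22 (its symbol is on 2 genes, so uncertain) 17.5 FPKM, ZNF24, a SCAN domain protein, 14.5 FPKM and ZNF75D 11.3 FPKM. The other three of the first 12 belong to the groups by function below.

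**Figure D2:**
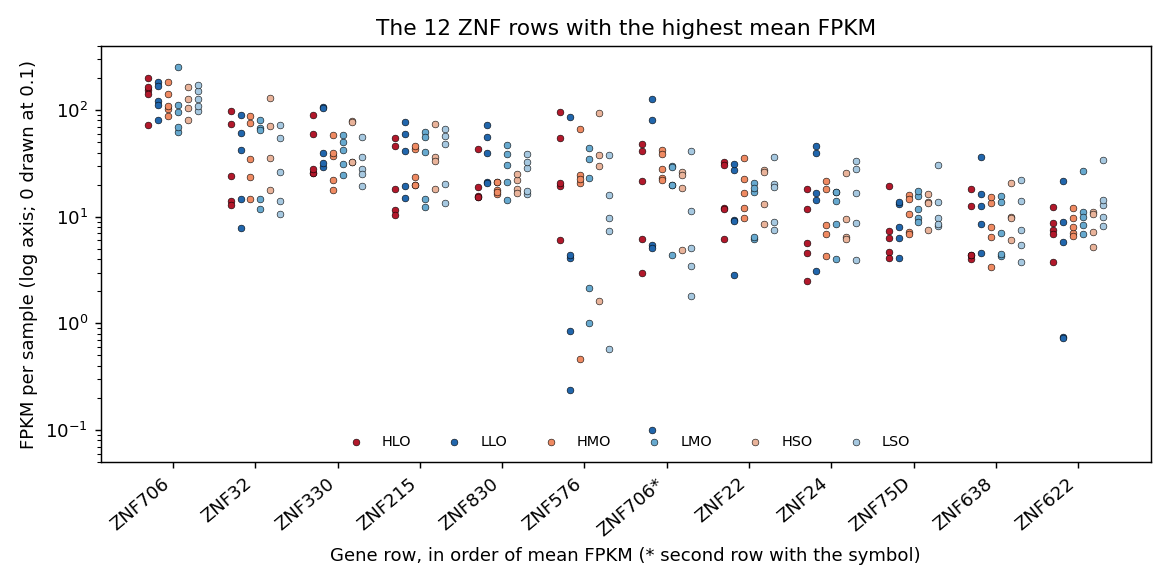
FPKM in each of the 29 samples (logarithmic vertical axis, a value of 0 drawn at 0.1) for the 12 ZNF genes with the highest mean, in order, with points coloured by group. The first ZNF706 gene stays between 62.0 and 253 FPKM, whereas ZNF576 runs from 0.235 to 96.9 FPKM, and the groups overlap for every gene.

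The members differed in how evenly they were expressed. On the scale of log2(FPKM + 1) the SD over the 29 samples had a median of 0.44, against 0.56 for all genes above the minimum, and ran from 0.13 to 1.99. The added 1 narrows this SD for low genes, and the members had lower levels. These medians therefore do not show that ZNF genes were more even. The largest SDs were those of ZNF576 (1.99), the second ZNF706 gene (1.59), ZNF32 (1.16), ZNF24 (1.03), ZNF639 (0.99), ZNF593 (0.97), ZNF622 (0.91) and ZNF207 (0.89). Among genes with a mean over 5 FPKM, the smallest were those of ZNF423 (0.46), a partner of SMAD proteins in BMP signalling, ZNF800 (0.47), the first ZNF706 gene (0.49), a ZNF638 gene (ENSCHIG00000022714, 0.55), ZNF830 (0.62) and ZNF75D (0.63). ZNF423 held between 2.02 and 11.7 FPKM, and its lowest value was in LLO replicate 4.

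Single samples held many of the extreme values. HSO replicate 5 gave the highest value of 25 members (20.2%, against 12.9% of all genes above the minimum), LLO replicate 5 that of 23 (18.5%, against 14.7%) and LSO replicate 1 that of 19 (15.3%, against 11.9%). LMO replicate 2, with the lowest FPKM sum, gave the highest value of 10 (8.06%) and the lowest of 10, against 10.5% and 10.8% of all genes. The lowest value of 27 members (21.8%) lay in LLO replicate 2, which also held that of 20.3% of all genes.

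Of 11 listed genes acting on ribosomes and RNA 7 passed, where 46.4% of all ZNF genes did, with means from 0.278 to 27.0 FPKM. ZNF830, which takes part in pre-mRNA splicing and in early mouse embryos is needed for cell proliferation, had 27.0 ± 14.2 FPKM and at least 14.4 FPKM in every sample. ZNF622, a factor of late 60S ribosome subunit assembly, had 10.3 ± 6.97 FPKM, but only 0.751 and 0.730 FPKM in LLO replicates 2 and 5, against 34.2 FPKM in LSO replicate 1. ZNF593, another 60S assembly factor, had 4.19 ± 4.10 FPKM. The RNA-binding proteins ZNF106 (4.0 FPKM) and ZNF326 (2.56 FPKM), the latter a link between transcription and splicing, were above 0.5 FPKM in all 29 samples. ZNF346, which binds double-stranded RNA, had 0.703 FPKM, and ZNF385D 0.278 FPKM. The other 4 did not pass the minimum: ZNF598, a sensor of collided ribosomes, was at most at 0.0853 FPKM, and ZNF385A was listed at 0 throughout.

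In the annotation deposited with the table, 121 of the 124 had a gene ontology term, most often metal ion binding (109), nucleus (108) and DNA binding (92). RNA splicing was attached to 4 members (ZNF326, ZNF830 and both ZNF638 genes) and to 0 of the other 143 ZNF genes. The term RNA binding stood beside 4 members and 1 other gene, and nucleolus beside 11 and 4. These are counts over the annotation, which was made for other purposes and is not complete.

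ZNF207, known as BuGZ, binds BUB3 at kinetochores and helps to assemble the spindle. It had 3.03 ± 3.0 FPKM with a median of 1.30 FPKM. In LMO it held 1.98, 0.473, 0.826, 3.65 and 4.30 FPKM in replicates 1 to 5, and in HSO 3.83, 1.16, 1.26 and 14.9 FPKM in replicates 1, 3, 4 and 5. Replicates 2 and 3 were below replicates 1 and 5 in each group, as for ZNF32. The other spindle gene of the list, ZNF365, did not pass the minimum and reached at most 0.341 FPKM.

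Of genes whose products work with chromatin cofactors, 9 of 15 entries passed, against 46.4% of all ZNF genes. ZNF638, which recruits the HUSH silencing complex to unintegrated viral DNA, is annotated as 2 genes, at 10.8 ± 7.34 FPKM (ENSCHIG00000003741) and 6.71 ± 3.42 FPKM (ENSCHIG00000022714), both uncertain because they share the symbol. ZNF451, a SUMO ligase, had 3.54 FPKM, ZNF532 3.03 FPKM, ZNF277 1.58 FPKM and ZNF518A 1.45 FPKM. ZNF618 (0.744 FPKM), ZNF335 (0.494 FPKM) and ZNF518B (0.374 FPKM) were lower. ZNF618 and ZNF335 had their highest values, 4.52 and 3.33 FPKM, in LMO replicate 2. ZNF592 and ZNF687, which share a complex with ZNF532, were at most at 0.415 and 0.414 FPKM.

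Among 8 factors that bind promoters, ZNF24 (14.5 FPKM), ZNF143 (8.26 FPKM), ZNF410 (1.80 FPKM) and ZNF281 (0.558 FPKM) passed, against 46.4% of all ZNF genes. ZNF143, an activator of small nuclear RNA genes and many promoters, held from 2.59 FPKM in HLO replicate 4 to 20.8 FPKM in HSO replicate 5. ZNF410, known for control of CHD4, held 0.0797 FPKM in LMO replicate 2 and 9.89 FPKM in HSO replicate 5. ZNF76, ZNF384 and ZNF711 were at most at 0.327 FPKM, and ZNF148 was above 0.5 FPKM in 1 sample.

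ZNF445, which protects methylation at imprinted genes in the early embryo, was at the edge of the list at 0.310 ± 0.201 FPKM. It was above 0.5 FPKM in HLO replicate 1 (0.889), LLO replicate 2 (0.701), LMO replicate 4 (0.537) and LSO replicate 5 (0.582). These are 4 samples of 4 groups.

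Transcripts of most proteins through which KRAB zinc finger proteins act were present. Of 47 entries under 34 symbols for corepressors and linked chromatin proteins, 31 passed the same minimum, where 45.4% of all genes did. Of the 31, 18 were above it in all 29 samples, against 47.2% of all genes that passed. Another 7 entries, under CBX1, CBX3 and RBBP4, were at 0 in every sample. TRIM28, the corepressor itself, had 3.59 ± 2.63 FPKM and was above 0.5 FPKM in 27 samples, and the methyltransferase SETDB1 had 1.36 ± 0.815 FPKM and was above 0.5 FPKM in 26. The HUSH components MPHOSPH8 (33.9 FPKM) and PPHLN1 (19.7 FPKM), the heterochromatin proteins CBX3 (30.4 FPKM, a symbol on 6 entries and uncertain) and CBX5 (27.8 FPKM), and DNMT1 (81.3 FPKM), UHRF1 (57.2 FPKM) and RBBP7 (188 FPKM) were higher than all but a few ZNF genes.

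Many ZNF genes stand side by side in the genome. Neighbours were read from the NCBI RefSeq annotation of the goat assembly ARS1.2, in which 113 of the 124 were found by symbol. There were 13 runs of at least 3 neighbouring ZNF genes, with 51 genes, of which 45 were in the FPKM table and 23 were above the minimum. All of ZNF667, ZNF583 and ZNF582 passed, as did 3 of the 4 genes ZNF140, ZNF84, ZNF26 and ZNF605 and 4 of the 5 genes with a value from ZNF565 to ZNF260. In 3 runs no gene passed, one being ZNF268, ZNF10 and ZNF891. Runs thus often held both genes that passed the minimum and genes that did not. Of all ZNF genes 46.4% passed it, so such mixed runs are not a result about neighbours.

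The members together made up 332 FPKM in HLO replicate 4 to 864 FPKM in HLO replicate 1, or 0.0845 to 0.223% of a sample's FPKM sum, with 68 to 109 members above 0.5 FPKM. Group medians of the sum were 460 FPKM in HLO, 640 in LLO, 542 in HMO, 585 in LMO, 594 in HSO and 647 in LSO. The ranges of all 6 groups overlapped.

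The sum followed the replicate number in part. It was 585 to 864 FPKM in the 6 samples numbered 1 and 618 to 862 FPKM in the 6 numbered 5, but 403 to 477 FPKM in the 6 numbered 3, so that neither of the first ranges overlapped the last. The 5 samples numbered 2 had 406 to 638 FPKM and the 6 numbered 4 had 332 to 660 FPKM. All samples numbered 5 lay above all those numbered 3 for 38 members (30.6%), where the same held for 27.4% of all genes above the minimum, and the reverse held for 0 members and 2.65% of all genes. This division of the samples was thus common to the whole table and is not a result about ZNF genes. With the samples scaled by median-of-ratios factors, which were 0.682 to 0.849 for number 3 and 1.27 to 1.35 for number 5, the sums were 505 to 669 and 482 to 673 FPKM and overlapped. What the numbers stand for is not stated in the labels.

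**Figure D3:**
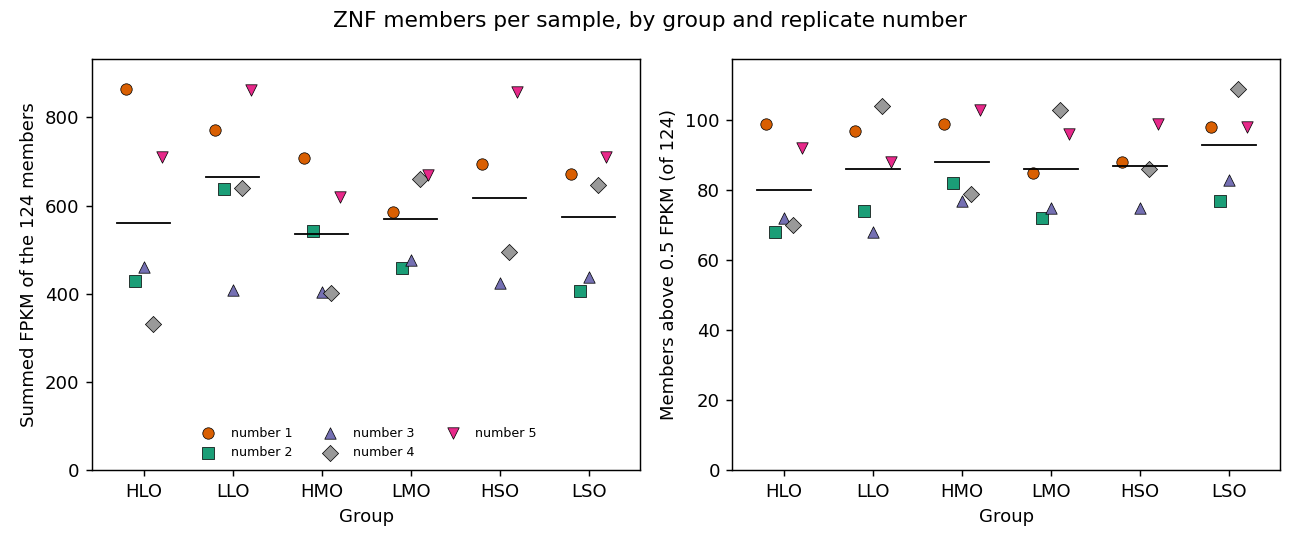
Summed FPKM of the 124 genes (left) and the number of them above 0.5 FPKM (right) in each sample by group, with the replicate number as colour and shape and a line at the group mean. In the left panel samples numbered 1 and 5 lie at 585 FPKM or more and those numbered 3 at 477 FPKM or less, while the 6 groups overlap.

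The first question of the design is whether oocytes differ with fertility within a follicle size. Log2 fold changes below are differences of mean log2(FPKM + 1), high minus low fertility, with standard errors from limma's moderated test across every gene that 4 or more of the samples in a comparison held at over 0.5 FPKM. This scale understates the change of low genes. The unadjusted limits used here ask for a change of over 1 on this scale with p under 0.05, after lines in a plot of the study, where the scale of the change is not stated, and a Benjamini-Hochberg adjusted p under 0.05 was applied beside them. With equal weight for every sample no ZNF gene passed the adjusted limit in any comparison, so single genes are given as values. With array weights, an alternative that lowers the weight of samples far from their group, 12 of 98 members and 1011 of 8390 genes passed it in medium follicles, and 11 of 124 members and 691 of 9692 genes over all follicles.

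In large follicles 96 of the 124 were tested, and 2 passed the unadjusted limits, both higher in HLO, where 1.78% of all 8328 genes did so. In the other direction 0 members and 0.516% of all genes passed. A share of 2 in 96 is near this background and is not a result about ZNF genes. By limma's adjusted p 0 members passed, 2 had an unadjusted p under 0.05, both higher in HLO (2.98% of all genes, and 4.14% in either direction), and 0 of all genes passed the adjusted limit. The groups overlapped for every member, and for all but 0.276% of genes higher in HLO and 0.156% higher in LLO. The median log2 fold change was -0.16, against -0.09 over all genes.

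One of the 2 was ZNF593, with 4.42, 6.38, 3.90, 3.94 and 1.74 FPKM in HLO replicates 1 to 5 and 1.21, 0.331, 0.298, 4.83 and 0.351 FPKM in LLO. All but 1 LLO sample lay below every HLO sample, and LLO replicate 4 lay among the highest, so the groups overlapped. The log2 fold change was 1.29 (SE 0.45), with an adjusted p of 0.828 by limma (unadjusted 0.0122). In medium and small follicles it was -0.43 and -0.85, with adjusted p-values of 0.815 and 0.880.

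The other was ZNF576, with 96.9, 19.3, 20.7, 6.02 and 54.7 FPKM in HLO and 85.5, 0.235, 0.840, 4.11 and 4.41 FPKM in LLO. Replicate 1 was the highest of both groups, and the other 4 LLO samples lay below all HLO samples. The log2 fold change of 2.32 (SE 1.03) had an adjusted p of 0.828 by limma (unadjusted 0.0410). Without any 1 of HLO replicates 1, 3 and 5 or LLO replicates 2 to 5, the unadjusted p was no longer under 0.05, at 0.0517 to 0.110.

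In medium follicles 98 members were tested. The unadjusted limits were passed by 0 members higher in HMO, against 2.85% of all 8390 genes, and by 1 higher in LMO, against 0.548%. A p under 0.05 was found for 6, all higher in LMO, where 3.58% of all genes were (5.09% in HMO, and 8.67% in either direction), and by limma's adjusted p 0 members and 6 genes of any name (0.0715%) passed. The groups did not overlap for 2 members, both higher in LMO, against 0.858% of all genes, while 0 members and 0.846% of all genes did not overlap and were higher in HMO. The median log2 fold change was -0.11, against -0.07 over all genes.

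ZNF532, a chromatin protein that partners with ZMYND8, was the one past the unadjusted limits. It had 1.87, 1.73, 2.37, 1.93 and 1.45 FPKM in HMO and 4.60, 11.5, 2.87, 3.46 and 4.36 FPKM in LMO, so every LMO sample was above every HMO sample. The log2 fold change was -1.02 (SE 0.32), with an adjusted p of 0.296 by limma (unadjusted 0.00695). Without LMO replicate 2, the sample of low FPKM sum, it was -0.74 and no longer beyond 1 in size, and without HMO replicate 5 it was -0.96.

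ZNF582, a KRAB zinc finger gene, was the other without overlap. It had 1.39, 1.13, 0.813, 0.527 and 0.798 FPKM in HMO and 2.22, 2.01, 1.39, 2.92 and 1.97 FPKM in LMO, the closest values being both 1.39 FPKM when rounded. The log2 fold change was -0.68 (SE 0.21), with an adjusted p of 0.281 in limma's test. Its neighbour in the genome, ZNF583, had a log2 fold change of 0.21 with an adjusted p of 0.867, and ZNF667 was not tested here.

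In small follicles 100 members were tested. The unadjusted limits were passed by 0 members higher in HSO, against 0.919% of all 8376 genes, and by 1 higher in LSO, against 0.776%. A p under 0.05 was found for 3, of which 1 was higher in HSO and 2 in LSO, against 2.04%, 2.36% and in total 4.41% of all genes, and by limma's adjusted p 0 members and 1 gene of any name (0.0119%) passed. The groups did not overlap for 1 member, higher in LSO, against 1.3% of all genes, while 0 members and 0.752% of all genes did not overlap and were higher in HSO. The median log2 fold change was 0.04, against -0.01 over all genes.

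ZNF639 passed the unadjusted limits, with 4.05, 3.13, 4.65 and 5.75 FPKM in HSO replicates 1, 3, 4 and 5 and 24.7, 4.34, 12.7, 18.0 and 5.60 FPKM in LSO replicates 1 to 5. LSO replicates 1, 3 and 4 were above all HSO samples and replicates 2 and 5 among them. The log2 fold change was -1.16 (SE 0.48), with an adjusted p of 0.880 by limma (unadjusted 0.0337). Without any 1 of HSO replicates 1, 3 and 4 or LSO replicates 1, 3 and 4 the unadjusted p was above 0.05, and without LSO replicate 1 the log2 fold change was -0.88. In medium follicles its value had the other sign, 0.74, with an adjusted p of 0.613, and HMO replicates 1 and 5 were highest at 16.6 and 16.5 FPKM.

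ZNF26 was the gene without overlap, with 0.694, 0.814, 0.791 and 0.625 FPKM in HSO and 2.93, 1.01, 0.947, 0.938 and 0.923 FPKM in LSO. The 4 lower LSO values were close to the highest HSO value and LSO replicate 1 stood far above. The log2 fold change of -0.38 (SE 0.24) had an adjusted p of 0.880 in limma's test.

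**Figure D4:**
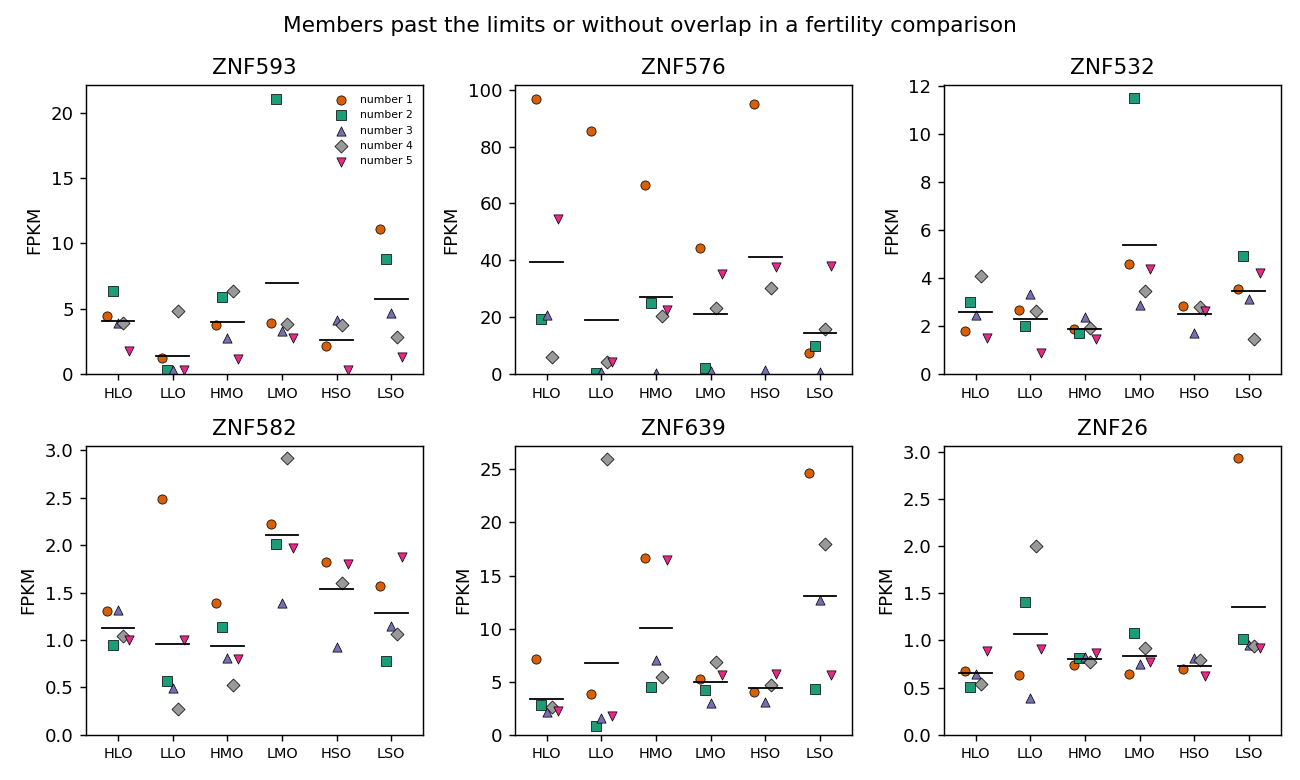
FPKM per sample (vertical axes from 0, each with its own scale) of the 6 genes past the unadjusted limits or without overlap in a fertility comparison, by group, with the replicate number as colour and shape and a line at the group mean. Single samples stand apart in several panels, such as LMO replicate 2 at 11.5 FPKM for ZNF532 and LSO replicate 1 at 2.93 FPKM for ZNF26.

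Over the 3 follicle sizes together, all 124 were tested for fertility with follicle size in the model. A p under 0.05 was found for 14 (11.3%), against 9.99% of all 9692 genes, all 14 lower in high fertility, where 6.59% of all genes were. In the other direction there were 0 members and 3.39% of all genes. The total share is near the background and is not a result about ZNF genes. After median-of-ratios scaling 119 members were tested, and 7 were lower and 3 higher, against 4.28% and 6.24% of 9573 genes, while the median log2 fold change of all genes went from -0.04 to 0.02. By limma's adjusted p 0 members and 1 gene of any name (0.0103%) passed. The median log2 fold change was -0.09, against -0.04 over all genes, and it was negative for 89 members (71.8%), against 57.2% of all genes.

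ZNF609, which works with cohesin-loading proteins, had the smallest p at a log2 fold change of -0.45 (SE 0.12), with an adjusted p of 0.423 by limma (unadjusted 0.00118). It was scarce, at 0.654 ± 0.194 FPKM over the high and 1.32 ± 0.674 FPKM over the low fertility samples, which overlapped. Within sizes its values were -0.50 in large, -0.38 in medium and -0.47 in small follicles. In LLO it had 0.317, 2.83, 0.772, 1.32 and 2.54 FPKM, and replicate 1 lay below every HLO sample. The next were ZNF462 (-0.44), the ZNF638 gene ENSCHIG00000022714 (-0.53), ZNF830 (-0.59) and ZNF318 (-0.37), with adjusted p-values of 0.423 to 0.436.

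ZNF830 was the most abundant of these. It had 21.0, 16.5, 17.7, 17.2 and 21.3 FPKM in HMO and 21.0, 47.6, 14.4, 30.4 and 38.7 FPKM in LMO. The HMO samples were close together, while LMO ran from below to above them. Over all samples its mean was 20.4 ± 7.31 FPKM in high and 33.1 ± 16.4 FPKM in low fertility.

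**Figure D5:**
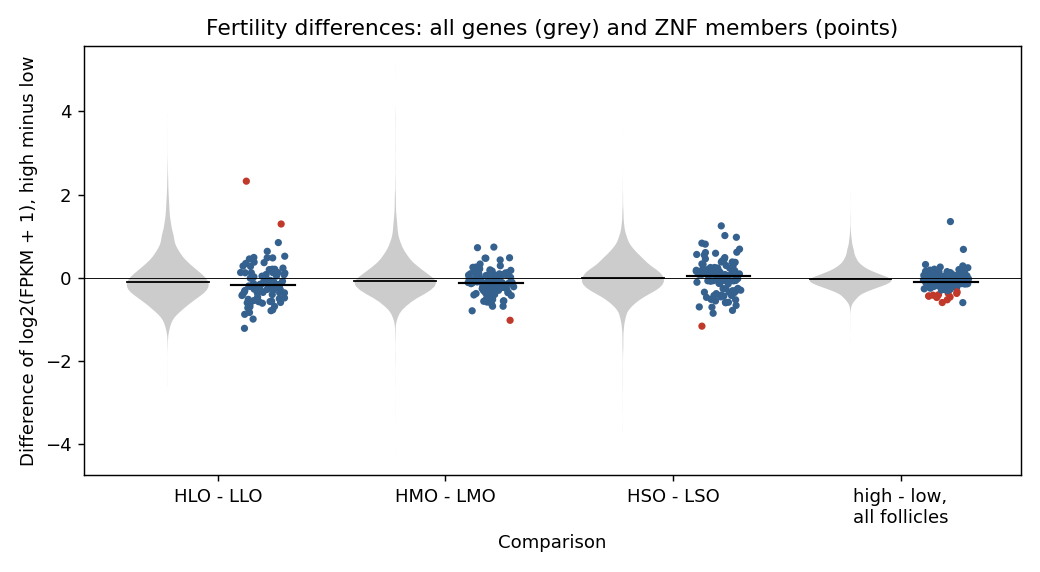
Differences of mean log2(FPKM + 1), high minus low fertility (vertical axis), for large, medium and small follicles and for all follicles together. Grey shapes show the distribution over all genes tested and points the ZNF genes, with lines at the medians; red points passed the unadjusted limits, or in the last column an unadjusted p under 0.05. ZNF576 is the highest point in large follicles at 2.32, and the medians of ZNF genes and of all genes lie between -0.16 and 0.04.

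The second question is whether follicle size matters. By limma's F-test over the 3 sizes with fertility in the model, 0 of the 124 had an unadjusted p under 0.05, against 1.66% of all genes, and by the adjusted p 0 members and 0 genes passed. The smallest member p was 0.0553, for ZNF274, which is known to bring SETDB1 to zinc finger gene clusters. Whether the fertility difference itself varied with follicle size was tested as an interaction, where 11 members (8.87%) had a p under 0.05, against 7.89% of all genes. By the adjusted p 0 members and 0 genes passed, the smallest member value being 0.411 for ZNF582. ZNF112, ZNF593, ZNF341 and ZNF226 came next, with adjusted p-values of 0.487 to 0.555 in limma's test.

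The corepressor list was tested in the same fits. By limma's adjusted p 0 of its entries passed in any comparison. An unadjusted p under 0.05 was found for 1 of 29 entries in large follicles (SMARCAD1, log2 fold change -1.27, adjusted p 0.828), 1 of 28 in medium (a CBX3 entry, 0.73, adjusted p 0.491) and 1 of 27 in small follicles (MPHOSPH8, -0.79, adjusted p 0.880), where 4.14%, 8.67% and 4.41% of all genes had one. Over all follicles there were 4 of 31, against 9.99% of all genes, all lower in high fertility, where 6.59% of all genes were: ATRX (-0.46), MPHOSPH8 (-0.49), CHD4 (-0.56) and DNMT1 (-0.56), with adjusted p-values of 0.423 to 0.476. There were 0 of 31 in the tests of follicle size and of the interaction, against 1.66% and 7.89% of all genes. DNMT1 held 432 and 225 FPKM in LLO replicates 2 and 5 and at most 107 FPKM in any other sample, with a median of 64.1 FPKM. TRIM28 had log2 fold changes of -0.27, 0.10 and -0.63 in large, medium and small follicles, with adjusted p-values of 0.880 to 0.962.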

How the data were processed

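The authors enriched mRNA by oligo(dT), sequenced it, mapped reads to the goat genome, retained unique matches with few mismatches, removed duplicates with picard, and made the deposited FPKM values with Cufflinks 2.2.1 on Ensembl genes. The aligner and genome build are not given in the sources used here. FPKM holds no counts, so no counting interval is given. Discarding reads with more than 1 match lowers genes with near-identical copies.

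Each column was tied to a sample by its name, and 1 column that matched no sample used here was left out. No samples were identical. Values were taken as log2(FPKM + 1) and compared in limma 3.58.1 (R 4.3.3) with a trend, over genes above 0.5 FPKM in at least 4 samples compared, with two-sided p-values adjusted over all genes tested. The procedure was tested on simulated data. Those data had independent noise for each gene and sample and no division by replicate number, so the test does not cover that division. Alternatives were a pseudocount of 0.1, no filter, median-of-ratios factors, array weights, 1 fit over all samples, a replicate block and leaving out each sample.

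Named are members past the unadjusted limits or without overlap, the 12 highest, those on lists by function, the 8 with the largest and 6 with the smallest SD, those confined to 1 or 2 groups or at the limit of the minimum, and up to 5 by p in the remaining tests. The members and lists were chosen with earlier results of these data known. ZNF583 and the samples singled out were named after their values were seen. Protein and promoter sequences were not analysed here.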

Additional observations from a re-analysis of the deposited data

Results flagged for a closer look

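The summed FPKM of the members and the number above 0.5 FPKM in each group, and the genes past the unadjusted limits or without overlap in the groups compared, made 24 sets of values, of which 4 had a highest sample whose gap to the next, relative to the range of the group, was beyond Dixon's 95% limit, a limit that chance passes in about 1 of 20 sets. The genes had been singled out by these same values, so this rate is no comparison for them. For ZNF593 in LLO this was replicate 4 at 4.83 FPKM, the next being 1.21 FPKM. For ZNF576 in LLO it was replicate 1 at 85.5 FPKM, the next being 4.41 FPKM. For ZNF532 in LMO it was replicate 2 at 11.5 FPKM, and for ZNF26 in LSO replicate 1 at 2.93 FPKM.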

How the results depend on the processing

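FPKM gives no counts, so no limit of detection is given, and most members lie at low levels where the pseudocount weighs most. The number of members (124) and of those above 0.5 FPKM in all samples (33) moved by less than 1.5 times with median-of-ratios factors and without LMO replicate 2, alternatives chosen after seeing the data. Genes past the limits or without overlap kept their sign throughout. The median log2 fold change of the members stayed negative in large, medium and all follicles under every alternative. In small follicles, where it was 0.04, it was negative without a filter, with array weights, with the replicate block, in 1 fit over all samples and without HSO replicate 5 or LSO replicate 2 or 3, and it ran from -0.14 to 0.16 when single samples were left out. The median over all genes turned positive with median-of-ratios factors in large (0.01), medium (0.02) and all follicles (0.02). Array weights moved most. In large follicles 1 member passed the unadjusted limits higher in HLO and 8 of 96 in LLO (3.69% and 6.78% of all genes). The main fit had 2 and 0, the reverse. In medium 2 of 98 passed higher in LMO (8.16%). Adjusted limits were passed by 12 in medium (12.1% of all genes), 11 of 124 over all follicles (7.13%) and 2 in the interaction (2.38%). A p under 0.05 was then found for 11 by follicle size (8.43% of all genes), 49 lower in high fertility (28.7%) and 23 in the interaction (16.7%). With a pseudocount of 0.1 there was 1 higher in LLO (1.10% of all genes), 2 in LMO (2.01%), 1 in HSO (1.62%), and 4 by follicle size (2.18%). Without a filter there was 1 in HLO (0.777%) and 1 by follicle size (2.12%). Median-of-ratios factors gave 0 higher in LMO (0.339%), 2 by follicle size (1.60%), and 3 higher and 7 lower in high fertility (6.24% and 4.28%). A single fit over all samples gave 1 in HLO (3.58%) and 0 in LSO (0.98%). The causes were not tested.

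Same-numbered samples of the high and low groups correlated above 0.1 in 10 of 14 pairs (-0.48 to 0.71). In 7 pairs the best match was the own number. For numbers 3 and 5 the correlations ran from 0.46 to 0.71, while for number 4 all were negative. The main fits left the replicate number out, and the labels do not state what it stands for. Any spread that follows the number therefore stays in their standard errors. With the replicate block there was 1 member higher in LLO (1.26% of all genes), 3 by follicle size (2.86%), 1 higher in high fertility over all follicles (5.10%) and 17 in the interaction (14.5%). By the adjusted p 0 members passed, as without the block, while the genes of any name that did were 127 in medium follicles and 70 in the interaction.

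Leaving out each sample gave 1 to 3 members higher in HLO, 0 to 4 in LLO (4 without LLO replicate 3, 2 without HLO replicate 5), 0 to 1 in LMO (0 without LMO replicate 2 or HMO replicate 5), 0 to 2 in HSO and 0 to 2 in LSO, where 0 were left without any 1 of HSO replicates 1, 3 and 4 and LSO replicates 1, 3 and 4. Over all follicles it gave 0 to 1 higher and 9 to 18 lower in high fertility (9 without HMO replicate 3 or 4), 0 to 7 by follicle size (7 without LLO replicate 4) and 5 to 16 in the interaction (5 without LSO replicate 1). The share of all genes moved too, to 3.10% higher in LLO without LLO replicate 3, 5.10% by follicle size without LLO replicate 4, 4.88 to 9.16% lower in high fertility and 6.15 to 11.6% in the interaction. The adjusted limit was passed by 0 members in each case, and by 160 genes of any name in medium follicles and 59 in the interaction without HMO replicate 2.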
